A study of Mus musculus with 2 samples.

Results

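Potassium channel genes were examined in cultured mouse cavernous pericytes, the mural cells that wrap small vessels of the penile erectile tissue. They comprise every gene on the array whose symbol starts with Kcn, without the imprinted RNA Kcnq1ot1, plus the sulphonylurea receptor genes Abcc8 and Abcc9. The rule took 98 of the 20887 named genes, read by 134 probes, and used no measured value. Of these, 96 code for proteins of the channels and 2 are antisense RNAs. Primary pericytes of C57BL/6 mice were grown in medium with serum and human pigment epithelium-derived factor. The high glucose cells were then kept at 30 mmol and the normal glucose cells at 5 mmol, as labelled, both for 72 h. RNA of 3 samples was pooled per condition and hybridised to 1 Agilent array each, both on the same slide. A control for the osmotic load of the added glucose was not used here. With 1 array per condition there is no replicate check, no test was run, and every difference is one between these pools.

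Potassium channels let potassium leave the cell and so hold the membrane potential negative, which keeps voltage-gated calcium channels of contractile cells closed. Voltage-gated (Kv) channels open on depolarisation, inward rectifiers pass current best near the resting potential, leak channels with paired pore domains are open at rest, and calcium-activated channels answer a rise in cell calcium. In mural cells of many vascular beds the ATP-sensitive channel, built from the pore Kcnj8 and the receptor Abcc9, links metabolism to membrane potential. Pores assemble with accessory subunits that set their gating, trafficking or pharmacology.

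The cells were checked against markers of the labelled type. Of 12 pericyte markers 10 were well above background on both arrays, among them Pdgfrb, Cspg4, Anpep and Mcam, while Kcnj8 and Vtn were not. Rgs5, Higd1b and Abcc9 passed with weak signals, 133, 90.0 and 99.3 in high glucose and 93.9, 91.1 and 144 in normal glucose. The weakest of the remaining measured ones, Ndufa4l2, had 1205 and 1398. All 7 smooth muscle markers and 6 of 7 fibroblast markers were also measured, so these markers do not separate pericytes from related mesenchymal cells. For endothelium 3 of 7 markers were measured. Kdr had 7075 in high glucose and 7379 in normal glucose, Pecam1 85.1 and 82.9, and Vwf 48.5 and 74.0. Cdh5, Cldn5, Emcn and Tek did not pass as measured. For skeletal and cardiac muscle 0 of 6 markers were measured. The immune list had 5 of its 5 named markers measured, the epithelial list 3 of 6, and the Schwann and nerve list 6 of 7. Summed signals of the pericyte list were 109616 in high glucose and 119433 in normal glucose. In the same order, those of smooth muscle were 630231 and 651812, and those of fibroblasts 217775 and 237579. The Schwann and nerve list had 17858 and 21641, the immune list 7568 and 7220, the endothelial list 7252 and 7576, and the epithelial list 643 and 688. At least 1.5-fold differences among all these markers were seen in Cdh19 and Cd74, both lower in high glucose (log2 ratios -0.75 and -1.60). Fewer cells of a type and less RNA per cell cannot be told apart in such pooled RNA, and the part of other cells in the results below was not tested.

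Potassium channel genes were mostly dim or below detection. A probe counted as measured when the scanner software called it well above background on both arrays and it was not saturated. This held for 45 of the 98 genes, or 45.9%, against 67.9% of all named genes. A further 3 genes were well above background in high glucose only and 3 in normal glucose only, and 1 gene was so on each array through a different probe. The other 46 genes passed on neither array. Signals are linear intensities and are called here, by the log2 of the mean over both arrays, dim below 7, low from 7 to 9, middle from 9 to 12 and bright above 12. Of the measured genes 20 of 45, or 44.4%, were dim, against 14.9% of all named genes measured. Error within an array was larger for dimmer spots. Over probes printed 10 times, the log2 ratio of a single spot had a median SD of 0.29 for dim, 0.10 for low, 0.044 for middle and 0.032 for bright signals. All 48 probes measured here were printed once, so these SDs stand in for an error that the members themselves do not give.

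**Figure D1:**
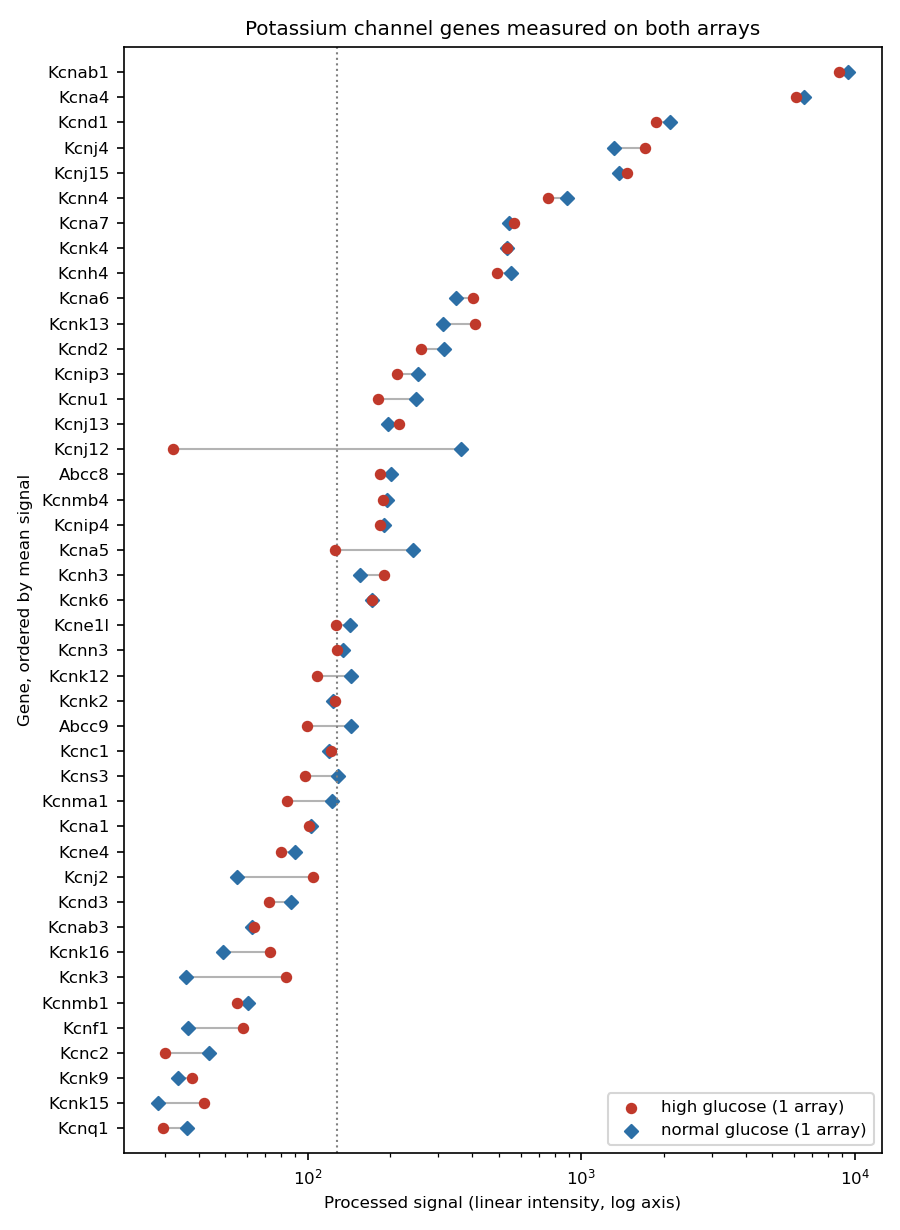
Processed signal (linear intensity, log axis) of 43 of the 45 potassium channel genes measured on both arrays, with 1 circle for the high glucose and 1 diamond for the normal glucose array per gene, ordered by mean signal. The dotted line marks the upper limit of dim signals; the wide gaps belong to Kcnj12, Kcna5, Kcnj2 and Kcnk3, while the 2 brightest genes, Kcnab1 and Kcna4, nearly coincide.

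The brightest spots belonged to a Kv beta subunit and to voltage-gated pores. Kcnab1, a cytoplasmic beta subunit that speeds inactivation of Kv1 channels, had a signal of 8754 in high glucose and 9411 in normal glucose. Kcna4, an inactivating Kv1 pore that is a partner of such beta subunits, had 6119 and 6506. Their log2 ratios of high over normal glucose were -0.02 and -0.01, within the spot error of 0.032. Ratios here are of signals divided by each array's 75th percentile, 733 in high and 774 in normal glucose, so equal raw signals give a log2 ratio slightly above 0. The order is one of spot brightness, which also depends on how well each probe binds, and is not an order of transcript number.

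Next came Kcnd1, a Kv4 pore of the rapidly inactivating A-type current, with 1878 in high glucose and 2106 in normal glucose (log2 ratio -0.09). The inward rectifiers followed. Kcnj4, a strong rectifier, had 1704 and 1320 (0.45), and Kcnj15, a weaker rectifier, had 1471 and 1374 (0.18). The Kcnj4 value is the largest difference among the 9 brightest members, 1.36-fold, and exceeds the spot error of 0.044 at that signal, an error that leaves out differences between pools and between labelling reactions. Its median pixel signal, less local background, gave 0.37.

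Members ranked 6 to 12 lay between 259 and 758 in high glucose and between 311 and 884 in normal glucose. Kcnn4, the intermediate-conductance calcium-activated channel that is known from proliferating mural cells, had 758 in high glucose and 884 in normal glucose (log2 ratio -0.14). Kcna7, a Kv1 pore of striated muscle, had 570 and 544 (0.15), and Kcnk4, a mechanically gated leak channel, had 534 and 535 (0.08). Kcnh4, an ELK-type voltage-gated pore, had a log2 ratio of -0.10, Kcna6 of the Kv1 family 0.29, Kcnd2 of the Kv4 family -0.20 and Kcnk13, a halothane-inhibited leak channel, 0.47. Kcnk13, at 409 in high glucose and 311 in normal glucose, was the furthest from 0 among these 7 genes and stayed below 1.5-fold.

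As a whole the measured members were centred near no difference. Their median log2 ratio was 0.01, against -0.01 over the 14178 named genes measured, with 23 members above and 22 below 0. Within 1.2-fold lay 28 of 45 members, or 62.2%, against 87.7% of all named genes measured. By signal range the shares were 50% against 59.5% at dim, 62.5% against 81.0% at low and 85.7% against 93.7% at middle signals. Both bright members lay within it, against 97.5%. These shares rest on 20, 16 and 7 members, so that at dim and middle signals the gap is a matter of 1 or 2 genes, and the difference was not tested.

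At least 1.5-fold higher in high glucose were 5 members, or 11.1%, against 1.62% of all named genes measured, and 2 members, or 4.44%, were at least 1.5-fold lower, against 1.19%. At least 2-fold, 1 member was higher and 1 lower, against backgrounds of 0.501% and 0.416%. All 5 higher members were dim, a range where 6.58% of all named genes were as much higher and 4.93% as much lower. In that range the 5 higher members made up 25% of 20, and no member was as much lower. For 2-fold differences the dim backgrounds were 2.04% higher and 1.42% lower, against 5% and 0% of members. Both lower members had low mean signals, reached only through normal glucose, at 362 for Kcnj12 and 242 for Kcna5. Their high glucose signals, 32.1 and 125, lay in the dim range. Above the dim range by mean signal these 2 genes made up 8% of 25 members, against a background of 0.539%. No member there was 1.5-fold higher, against 0.746%. The contrast in signal range with the 5 higher members therefore rests on the use of the mean of both arrays. After normexp background correction with an offset of 50 none of the 5 higher members stayed past 1.5-fold, while both lower ones did. Such an offset shrinks ratios of dim genes by construction. From median pixels Kcnj2 and Kcnk3 stayed past it among the 5. With 5 and 2 genes these counts describe the pools and no more.

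**Figure D2:**
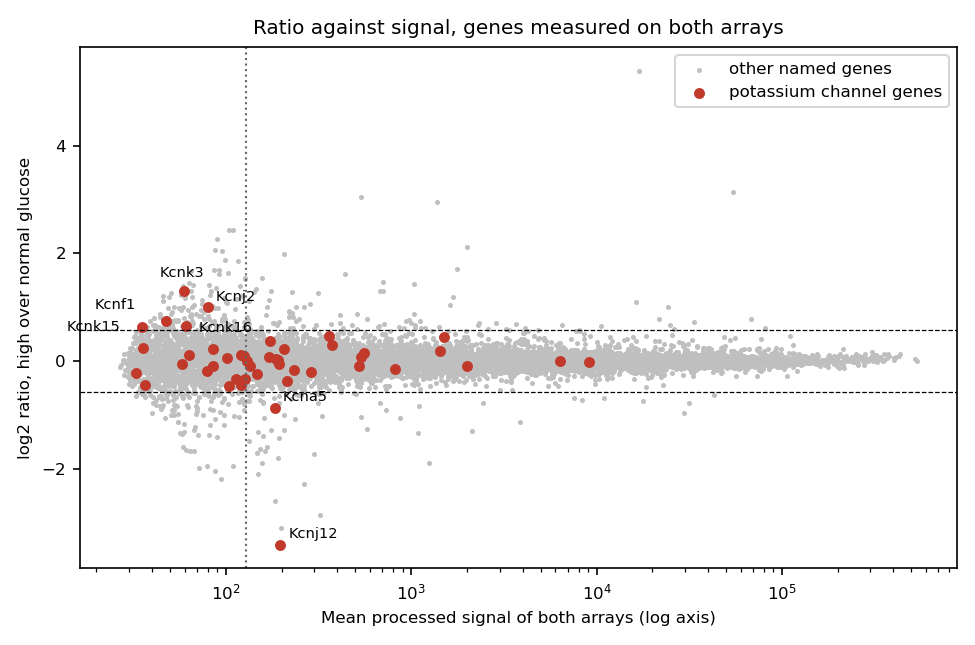
Log2 ratio of high over normal glucose against the mean processed signal of both arrays (log axis) for 14178 named genes measured, with the 45 potassium channel genes in red and the 7 that differ at least 1.5-fold (dashed lines) named. All 5 named genes above the upper line lie left of the dotted line that ends the dim range, where the grey points also fan out.

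Inward rectifiers held the lowest ratio of all members. Kcnj12, a strong rectifier that co-assembles with Kcnj2, had a signal of 32.1 in high glucose and 362 in normal glucose. It was 10.7-fold lower in high glucose, the lowest log2 ratio (-3.41) among all named genes measured. The high glucose spot lay just above the lowest spot called well above background on that array, at 24.0, so the size of the ratio depends on a value near detection. From median pixels, 45 in high and 310 in normal glucose, the log2 ratio was -2.71. Neighbouring dim spots on the slide were shifted by -0.08, in signals that still held their background and so on another scale. A fault of the spot itself was not tested. The gene has 1 probe on the array.

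Kcnj2, the classical strong rectifier through which mural cells respond to raised external potassium, went the other way. It had 104 in high glucose and 55.3 in normal glucose, 1.99-fold higher, with a log2 ratio of 0.67 from median pixels. Both signals were dim, and this gene too has 1 probe. The remaining measured rectifier, Kcnj13, had log2 ratios of 0.22 and -0.02 from its 2 probes. Thus 5 of 15 inward rectifier genes were measured, 4 with ratios above 0 and Kcnj12 below. Among the 10 that were not are the G protein-gated pores Kcnj3, Kcnj5, Kcnj6 and Kcnj9.

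Both pores of the ATP-sensitive channel were below background. Kcnj8, whose product forms the vascular type and which serves as a pericyte marker in tissue, had signals of 9.84 in high glucose and 13.4 in normal glucose. Kcnj11, the pore of the pancreatic type, had 5.55 and 6.15 from its brighter probe. Signals of this size are not well above background and have no ratio. The receptors were measured. Abcc9 had 99.3 in high glucose and 144 in normal glucose, a log2 ratio of -0.45 against a spot error of 0.29. Abcc8 had 183 and 202 (-0.06), with a second probe below background on both arrays. Low signal of a single probe does not show that Kcnj8 RNA was absent.

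Leak channels of the Kcnk family were the class with the most measured members, 9 of 14, and 3 of the 5 members that were 1.5-fold higher in high glucose. Kcnk3, an acid-sensitive channel that sets resting potential in vascular muscle, had 83.4 in high glucose and 35.9 in normal glucose. It was 2.46-fold higher, with a log2 ratio of 1.30, or 0.97 from median pixels. Kcnk16, an alkaline-activated channel best known from pancreatic islets, had 73.0 and 49.0 (0.65), and Kcnk15, a relative of Kcnk3 that carries little current by itself, had 41.8 and 28.4 (0.63). From median pixels these 2 fell short of 1.5-fold, at 0.46 and 0.43. All 3 were dim, a range where 6.58% of all named genes were as much higher. With normexp and an offset of 50, Kcnk3 had 0.51, Kcnk16 0.25 and Kcnk15 0.20.

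The other leak channels did not all point upward. Kcnk12, a relative of Kcnk13, had 108 in high glucose and 144 in normal glucose (-0.33). Kcnk2, a stretch-activated channel, had 126 and 124 (0.10), Kcnk6 had 171 and 172 (0.07), and Kcnk9, an acid-sensitive relative of Kcnk3, had 37.7 and 33.6 (0.25). Over the 9 genes the median log2 ratio was 0.25, with 8 above 0, against 6632 of 14178 named genes measured. Among the 8, Kcnk4 (534 in high and 535 in normal glucose) and Kcnk6 had nearly equal raw signals. The ratios of Kcnk2 and Kcnk9 lay within the dim spot error of 0.29. Around the spots of the 3 leak channels past 1.5-fold, neighbouring dim spots were shifted by 0.00 to 0.07.

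**Figure D3:**
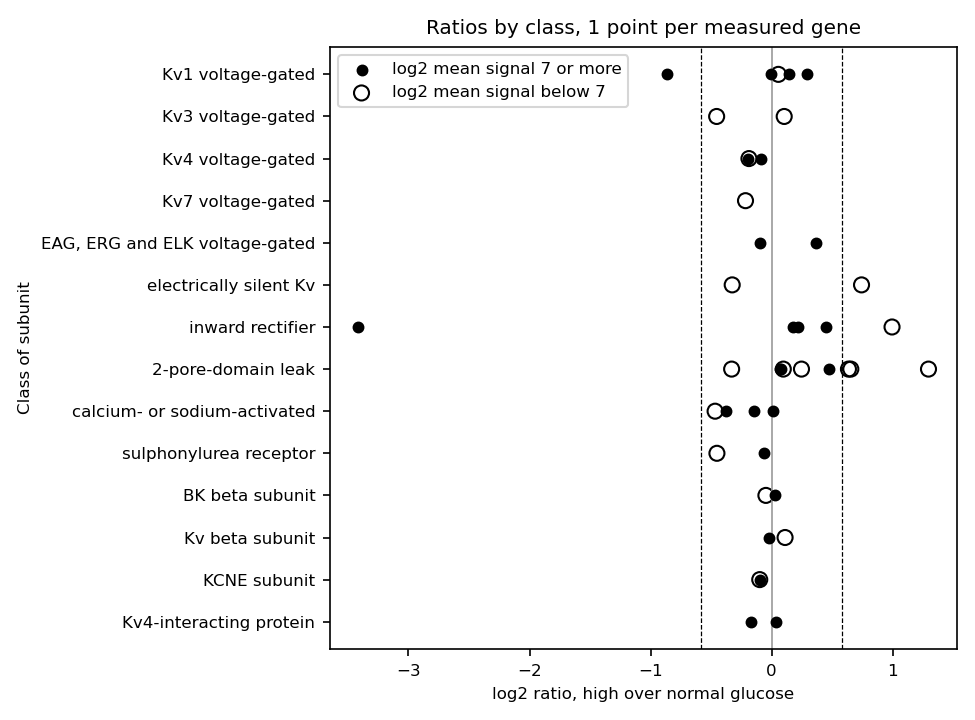
Log2 ratio of high over normal glucose for 43 of the 45 measured genes by class of subunit, 1 point per gene, open where the mean signal was dim and filled where it was higher; dashed lines mark 1.5-fold. The leak and inward rectifier classes hold 4 of the 5 points beyond the right line, all open, and the point far to the left is Kcnj12.

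Voltage-gated pores showed 1 difference past 1.5-fold. Kcna5, a Kv1 pore that limits depolarisation of vascular smooth muscle, had 125 in high glucose and 242 in normal glucose. It was 1.82-fold lower (log2 ratio -0.87, and -0.87 from median pixels), with a spot error of 0.10 in that range. Its second probe, at 5.84 and 6.66, was below background on both arrays, so the difference rests on 1 probe. Of the remaining Kv1 genes measured, Kcna1 had a log2 ratio of 0.06.

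The other voltage-gated families held no difference of 1.5-fold. All 3 Kv4 pores were measured and had log2 ratios between -0.20 and -0.09. Of the Kv3 genes Kcnc1 had 0.10 and Kcnc2, at 30.0 in high glucose and 43.4 in normal glucose, -0.45. Of 5 Kv7 genes Kcnq1 was the only one measured, at 29.5 in high glucose and 36.2 in normal glucose (-0.22). Kcnq5, a Kv7 pore of arterial muscle and neurons, had 32.8 in high glucose and 30.4 in normal glucose and passed only in high glucose, a bound of at least 1.14-fold, while its median pixels, 33.5 and 38, gave a log2 ratio of -0.11, so the direction turns on the signal measure. Of 8 EAG, ERG and ELK genes Kcnh4 and Kcnh3 were measured, Kcnh3 at 0.37.

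Calcium- and sodium-activated channels had log2 ratios from -0.47 to 0.01. Kcnma1, the BK pore that opens with calcium and voltage together, had 84.2 in high glucose and 123 in normal glucose (log2 ratio -0.47, or -0.59 from median pixels). A second Kcnma1 probe had 4.76 in high glucose, not well above background, and 68.4 in normal glucose, at least 2.70-fold lower. The third, at 28.7 and 25.5, passed on neither array. Kcnn3, a small-conductance channel, had a log2 ratio of 0.01 and Kcnu1, a pH-sensitive pore known from sperm, -0.38. The class thus had 4 of 8 genes measured, with a median of -0.26. None of their representative probes was past 1.5-fold by processed signal, while Kcnma1 was by median pixels.

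No accessory subunit measured on both arrays differed by 1.5-fold. Of 19 genes, 10 were measured in this way, with log2 ratios from -0.45 for Abcc9 to 0.11 for Kcnab3, and a median of -0.06. Kcnmb1, the BK beta subunit typical of smooth muscle, had 55.3 in high glucose and 60.4 in normal glucose (-0.05). Kcnmb4, the BK beta subunit known from neurons, had 188 and 195 (0.03). The KCNE-type subunits Kcne1l and Kcne4 had -0.09 and -0.10, and the second Kcne1l probe gave -0.09 as well. The Kv4-interacting proteins Kcnip3 and Kcnip4 had -0.17 and 0.04.

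Electrically silent Kv subunits, which carry no current alone and modify Kv2 pores, were measured in 2 of 10 genes. Kcnf1 had 58.0 in high glucose and 36.6 in normal glucose, 1.67-fold higher. Its second probe had 73.0 in high glucose and 23.1, below background, in normal glucose, at least 2.87-fold higher. Kcnf1 was the only member past 1.5-fold with a second probe that pointed the same way, although dim spots around the second one also leaned to high glucose, by 0.35. Kcns3 had 97.7 and 129 (-0.33).

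Genes seen on 1 array only gave bounds. For a bound, the weaker spot was raised, where it lay lower, to the weakest signal called well above background on its array. That signal was 24.0 in high glucose and 26.9 in normal glucose. It is not a detection limit, since a Kcnma1 probe at 28.7 in high glucose was not called. For Kcnq5, Kcnrg and Kcnh2 the weaker spot lay above it, so their bound is the ratio to a signal that was not called. The words "at least" hold against these values only. Kcns2, a silent Kv subunit, had 101 in high glucose and 6.94 in normal glucose, at least 3.99-fold higher, beside dim neighbours that leaned the same way by 0.42. Kcnk10, a stretch-activated leak channel, had 81.7 and 6.85, at least 3.21-fold higher, with neighbours at -0.17. In the other direction Kcnrg, which hinders Kv assembly, had 24.9 in high glucose and 43.4 in normal glucose, at least 1.65-fold lower, Kcnh2, the ERG pore of cardiac repolarisation, at least 1.37-fold lower and Kcnc4, a Kv3 pore, at least 1.28-fold lower. These 3 and 3 genes are 3.06% each of the 98, against 2.45% of named genes seen in high glucose only and 1.63% in normal glucose only.

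Kcnip3 showed how far 2 probes of a gene could part. Its measured probe had 212 in high glucose and 253 in normal glucose. The other had 91.9 and 17.0, at least 3.61-fold higher, beside dim neighbours that leaned the same way by 0.42. Of 308 negative control spots, which match no mouse transcript, 8 were well above background in high glucose only, 7 in normal glucose only and 0 on both arrays. Passing on a single array was therefore also seen at spots with no target.

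**Figure D4:**
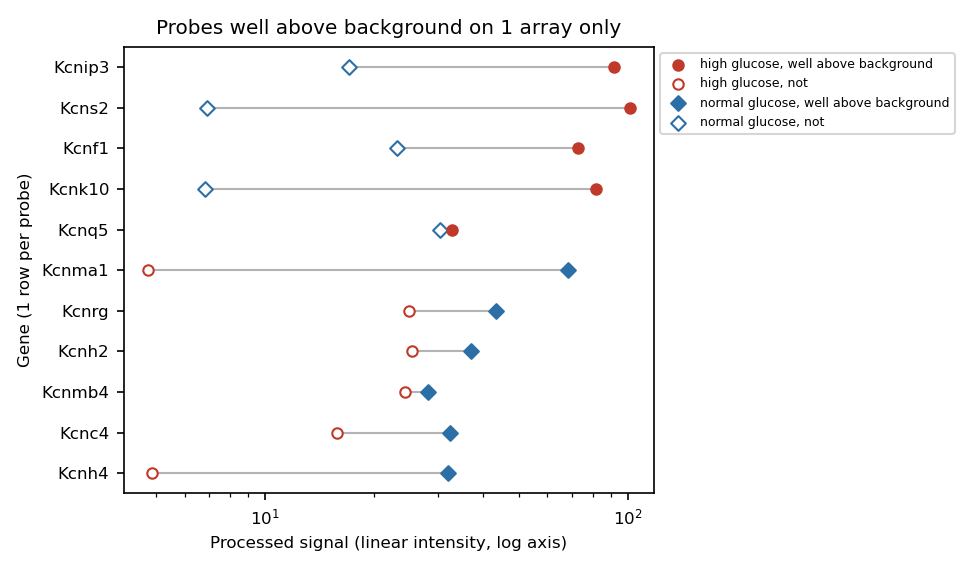
Processed signal (linear intensity, log axis) of 11 of the 13 potassium channel probes well above background on 1 array only, 1 row per probe; circles are high glucose, diamonds normal glucose, and open symbols were not well above background. The upper rows, from Kcnip3 to Kcnq5, passed in high glucose and the lower rows in normal glucose.

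Detection also differed between probes of a gene. Of the 45 measured genes 19 had another probe on the array. That probe was measured on both arrays for 3 genes (Kcna7, Kcnj13 and Kcne1l), on 1 array for 5 and on neither for 11. For Kcnj15 the bright probe stood at 1471 in high glucose and 1374 in normal glucose while the other had 16.5 and 26.5, and for Kcnk4 the pair was 534 and 535 against 13.1 and 5.51. Whether such pairs read different transcripts, or 1 of them reads another RNA, was not tested, since probe sequences were not used here. In the 3 genes with paired measurements no probe differed by more than 1.2-fold between conditions.

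Genes that work beside the channels were compared as a list of 45, of which 43 were named on the array and 32 measured. They had a median log2 ratio of 0.01, and 28 of 32 lay within 1.2-fold, against 87.7% of all named genes measured. None was 1.5-fold higher and 1 was 1.5-fold lower, Gja4, a gap junction protein of arterial cells, at 43.5 in high glucose and 72.6 in normal glucose. Over all named genes measured 1.62% were as much higher and 1.19% as much lower. In the dim range, where Gja4 lies, these shares were 6.58% and 4.93%. Itpr3, a calcium release channel, had 32692 in high glucose and 33722 in normal glucose (0.04), and Hcn2, a hyperpolarisation-activated cation channel, had 30509 and 35322 (-0.13). Of these 32 genes 6, or 18.8%, were dim, against 44.4% of the measured potassium channel genes. Of 8 listed genes of voltage-gated calcium channels, whose opening the potassium channels restrain, 5 were measured. Among them, the pore Cacna1g had 492 in high glucose and 431 in normal glucose (0.27), and the pore Cacna1h 255 and 261 (0.05). The pores Cacna1c and Cacna1d did not pass as measured, with 26.4 and 41.1 in high glucose and 21.8 and 14.8 in normal glucose.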

How the data were processed

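The submitters deposited 1 Agilent 1-colour (Cy3) scanner file per condition. Per the file headers, the authors' processed signal is a linear intensity, background-subtracted and detrended within the array by Feature Extraction 11.5.1.1; the submitters' processing notes name version 9.3.2.1. The deposited value table held the same intensity for 55249 of 55249 probes printed once (relative tolerance 0.0001; column medians 48.9 in high and 49.6 in normal glucose), without log transformation. Spot flags come from the same software, per the file headers.

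Here the log2 of the processed signal was averaged over the spots of a probe, and each array's 75th percentile over 55681 gene probes was subtracted. No spot was saturated; 57.6% of gene spots in high and 56.3% in normal glucose were well above background, and the number of arrays limits the precision. A probe with repeat spots passed when at least 0.5 of its spots did. RefSeq accessions without versions were matched to the gene table of assembly GRCm38.p6: 27509 probes matched 1 symbol and 28172 none, which stay unnamed. The design names another build, so no coordinates are given. A gene was represented by its best detected and then brightest probe.

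Members, lists and rules were chosen with earlier results of these data known. Named were the 12 brightest members, all past 1.5-fold, up to 4 bounds in each direction, 16 genes of mural cell interest, members with paired probes and, of the neighbouring list, its 3 brightest and those past 1.5-fold; further members are examples named after their values were seen. Some genes that these rules take are not reported here. Median pixel ratios and the shift of dim spots within 2 rows and columns (at least 3 such spots) describe spot quality. The shift was taken from median pixels with local background left in, so it is not on the scale of the ratios. The counting step was tested on simulated data. Since the files hold no mean pixel signal, the normexp alternative used median pixels. Python 3.11.15, pandas 2.3.3, R 4.3.3 and limma 3.58.1 (normexp and quantile steps only) were used.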

Additional observations from a re-analysis of the deposited data

How the results depend on the processing

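Under 10 alternatives the count of 45 measured members changed by construction with no filter on dim probes (98), with the looser call of positive and significant signal (57) and with dim members left out (25). The 7 members past 1.5-fold became 2 with normexp and an offset of 50 and 2 without dim members, in both cases Kcna5 and Kcnj12. These 2 count as not dim through their normal glucose signals, so their staying without dim members is no separate check. The 7 became 20 with no filter and 11 with the looser call. Median pixels gave 5, of which 4 were among the 7 and Kcnma1 was added. Quantile normalization and median centring each left 6, without Kcnk15. The 2 members past 2-fold became 1 with normexp, 1 from median pixels, 1 without dim members, 11 with no filter, 4 with the looser call and 3 with the percentile over detected probes, where Kcnj2 was added at 1.00. An offset shrinks ratios of dim genes by construction; the cause of the median pixel change was not tested. The median log2 ratio of the members, 0.01, lay between -0.09 and 0.03, and median centring moved all genes by -0.06. Of 271 values of named members under alternatives, 244 moved by less than the spot error, 27 by more, and none of the 7 past 1.5-fold changed sign. No paired analysis was possible because each condition has 1 array. Signal near background limits the 20 dim members, all bounds and, through its high glucose spot, Kcnj12.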
